A study of Mus musculus with 10 samples.

Results

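Platelet genes were examined in RNA from CD31+ cells of the heart. The set holds 37 named genes of the 46983 genes in the deposited count table, found by matching the versioned Ensembl identifiers to gene symbols, and all 37 were among the 15949 genes with enough reads to be tested. The members were named with results of these data in view, and the diet contrast is among the values that chose them, so every difference between the diets given below for a member is a description. Male wild-type C57BL/6J mice, 8 weeks old at the start, were fed either the control diet D12359, with 11.6% of its energy as fat, or the ketogenic diet D17011501, with 89.5% of its energy as fat, for 14 days. There were 5 mice on each diet, and each mouse gave 1 library. Hearts were digested with collagenase and dispase, and cells were held back by CD31 antibodies on magnetic beads. The counts on genes summed to 10885154 in the shallowest library and 12710861 in the deepest.

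Platelets are cell fragments without a nucleus that megakaryocytes shed into the blood, and they carry messenger RNA from the megakaryocyte. On an injured vessel they bind von Willebrand factor and collagen, signal through kinases or through G proteins, switch on the integrin that binds fibrinogen, and release granules. CD31 is the product of Pecam1 and lies on platelets and leukocytes as well as on endothelial cells. Many genes of platelet activation are also used by endothelial cells, macrophages or lymphocytes, whereas others are largely restricted to megakaryocytes and platelets. The 37 genes were therefore divided into classes from textbook knowledge, but with earlier results of these data known. The classes were 12 platelet-restricted genes (Ppbp, Itga2b, Gp1ba, Gp1bb, Gp5, Gp6, Gp9, Treml1, Clec1b, Tubb1, F2rl2 and Nrgn), 4 also made by macrophages (Pf4, F13a1, P2ry12 and Tbxas1), 12 also made by vascular cells and 9 of general signaling.

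Megakaryocyte genes are known for binding sites of GATA and ETS factors near their starts. The 250 bases before the start of transcription were taken from RefSeq on GRCm38.p6, 5′ to 3′ in the direction of the gene, and 34 of the 37 genes matched an entry. They were searched on both strands for the GATA letters AGATAA or AGATAG, or either of these with T in first place (TGATAA or TGATAG), and for the ETS letters CAGGAA or CCGGAA. The windows shown are those of the 2 platelet chemokine genes, which are neighbors on chromosome 5, of 3 genes of the von Willebrand factor receptor, whose levels moved together from mouse to mouse, and of Ptgs1, whose level did not follow them. Capitals mark every match on either strand, so that a match on the opposite strand appears as its reverse complement.
Ppbp, chr5:90768268-90768517 (plus strand): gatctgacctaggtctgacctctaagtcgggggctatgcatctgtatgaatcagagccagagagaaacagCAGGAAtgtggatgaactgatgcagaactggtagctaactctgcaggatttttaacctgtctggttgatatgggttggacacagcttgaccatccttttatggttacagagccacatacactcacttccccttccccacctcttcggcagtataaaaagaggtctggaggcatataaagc
Pf4, chr5:90772185-90772434 (plus strand): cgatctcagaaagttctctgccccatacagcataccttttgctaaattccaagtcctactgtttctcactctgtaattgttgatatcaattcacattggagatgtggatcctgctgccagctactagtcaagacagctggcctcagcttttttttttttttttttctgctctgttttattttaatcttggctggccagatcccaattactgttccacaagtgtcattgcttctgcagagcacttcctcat
Gp1ba, chr11:70638872-70639121 (plus strand): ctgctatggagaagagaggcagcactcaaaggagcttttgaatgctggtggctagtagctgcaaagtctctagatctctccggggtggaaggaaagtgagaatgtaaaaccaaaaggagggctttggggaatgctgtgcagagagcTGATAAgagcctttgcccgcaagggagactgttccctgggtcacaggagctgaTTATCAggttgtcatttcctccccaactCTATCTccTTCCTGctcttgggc
Gp5, chr16:30310782-30311031 (minus strand): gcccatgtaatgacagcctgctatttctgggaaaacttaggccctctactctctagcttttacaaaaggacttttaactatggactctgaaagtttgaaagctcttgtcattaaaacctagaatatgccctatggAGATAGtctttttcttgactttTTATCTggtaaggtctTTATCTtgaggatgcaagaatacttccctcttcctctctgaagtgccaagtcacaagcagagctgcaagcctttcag
Gp9, chr6:87777820-87778069 (plus strand): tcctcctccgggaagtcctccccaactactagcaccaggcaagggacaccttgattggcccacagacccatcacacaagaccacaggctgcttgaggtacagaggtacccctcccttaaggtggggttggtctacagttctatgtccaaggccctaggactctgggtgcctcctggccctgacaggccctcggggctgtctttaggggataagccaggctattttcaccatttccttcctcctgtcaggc
Ptgs1, chr2:36230176-36230425 (plus strand): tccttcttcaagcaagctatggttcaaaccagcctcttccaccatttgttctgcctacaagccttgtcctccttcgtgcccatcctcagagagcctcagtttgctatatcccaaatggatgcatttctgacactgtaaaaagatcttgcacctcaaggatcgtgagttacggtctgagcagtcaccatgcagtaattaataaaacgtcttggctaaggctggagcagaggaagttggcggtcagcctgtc
Ppbp lies at chromosome 5 from 90768518 to 90770063 and Pf4 at chromosome 5 from 90772435 to 90773383, on the same strand and 2371 bases apart. The window before Ppbp held 1 ETS match, that before Gp1ba 3 GATA matches and 1 ETS match, and that before Gp5 3 GATA matches. No match stood in the windows before Pf4, Gp9 and Ptgs1, which says only that these letters are not there. Of the 12 platelet-restricted genes, 6 had a GATA match (50.0%) and 5 an ETS match (41.7%), where 26.5% and 35.1% of all 32851 promoter windows had one. For the 22 other members with an entry the shares were 22.7% and 40.9%. Members were counted by 1 window per gene, whereas the background takes every window. Among the 12, all 250 bases before Gp1bb lie in an exon of Sept5. The windows of Itga2b, Nrgn and F2rl2 hold 180, 159 and 67 bases of their own annotated exons. These matches describe letters in a window and no bound factor.

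The labeled cell type was checked against its markers. Pecam1 stood at 575 to 641 CPM on the control diet and 538 to 624 CPM on the ketogenic diet and Cdh5, which encodes VE-cadherin, at 611 to 683 CPM on the control diet and 593 to 668 CPM on the ketogenic diet. CPM is a gene's read count scaled to a common library size, with the library sizes adjusted by edgeR's TMM factors. The 10 endothelial markers together summed to 4837 to 5257 CPM on the control diet and 4662 to 5290 CPM on the ketogenic diet. The 12 platelet-restricted genes together summed to 604 to 1063 CPM on the control diet and 234 to 693 CPM on the ketogenic diet, so these transcripts were present in every library. Macrophage markers (11 of 11 measured) summed to 209 to 768 CPM on the control diet and 190 to 340 CPM on the ketogenic diet, with Csf1r at 9.43 to 46.7 CPM on the control diet and 14.4 to 39.7 CPM on the ketogenic diet and Ptprc at 44.7 to 117 CPM on the control diet and 42.3 to 77.2 CPM on the ketogenic diet. Lymphocyte markers (10 of 10 measured) summed to 297 to 434 CPM on the control diet and 248 to 302 CPM on the ketogenic diet, where 4 of 5 ketogenic mice lay below every control mouse, and 1 of them did by the mean z-score of the list. Of these markers 5 were lower at an unadjusted p-value under 0.05, and Cd79a, a chain of the B cell receptor complex named after its values were seen, was lower, with a log2 fold change of −0.46 ± 0.08 (SE) (edgeR, adjusted p = 0.0221). Of the macrophage markers 5 were lower at an unadjusted p-value under 0.05 and 0 at an adjusted one. The shares of all tested genes that were lower were 9.26% and 0.527%. Cardiomyocyte markers (10 of 10 measured) summed to 484 to 651 CPM on the control diet and 591 to 855 CPM on the ketogenic diet. By this sum 4 ketogenic mice lay above every control mouse, and by the mean z-score of the list 3 did. Of these markers 7 were higher at an unadjusted p-value under 0.05 and 0 at an adjusted one. The shares of all tested genes that were higher were 8.57% and 0.809%. Myh6 stood at 29.9 to 64.4 CPM on the control diet and 46.2 to 88.8 CPM on the ketogenic diet. The 6 neuron markers summed to 266 to 277 CPM on the control diet and 245 to 272 CPM on the ketogenic diet. Stmn2 alone had means of 260 and 250 CPM. By this sum, and by the mean z-score of the 3 tested, 4 of 5 ketogenic mice lay below every control mouse. Of these 3, 1 was lower at an unadjusted p-value under 0.05 and 0 at an adjusted one, against 9.26% and 0.527% of all tested genes. Exons of 14 members overlap those of another gene, on the same strand for 3 (Gp1bb, Clec1b and Pear1) and on the other strand for 11, and since the kit does not record the strand, reads in the shared bases cannot be assigned. In such bulk samples, fewer platelets and less RNA per platelet cannot be told apart.

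The 12 platelet-restricted genes all had lower mean levels on the ketogenic diet, with wide spreads between mice, whereas of the 21 genes that vascular cells also make or that serve general signaling 16 had a negative and 5 a positive log2 fold change. The median log2 fold change, ketogenic minus control, was −0.98 over the 12 platelet-restricted genes, −0.75 over the 4 genes also made by macrophages, −0.11 over the 12 also made by vascular cells and −0.24 over the 9 of general signaling, against −0.01 over all tested genes. By edgeR's quasi-likelihood test with Benjamini-Hochberg adjustment over all 15949 tested genes, 1 of the 37 members, Tbxas1, had an adjusted p-value under 0.05 and was lower, and none was higher, where 0.527% of all tested genes were called lower and 0.809% higher. At an unadjusted p-value under 0.05, 21 members were lower and 1 was higher, where 9.26% of all tested genes were lower and 8.57% higher. Since the members were chosen with this contrast known, nothing is read from these counts. Of the 12 platelet-restricted genes, 12 had a negative log2 fold change, 11 had an unadjusted p-value under 0.05 and 0 had an adjusted one under 0.05. With DESeq2's Wald test in place of edgeR's, 9 of the 37 members had an adjusted p-value under 0.05, all of them lower and 3 of them platelet-restricted (Gp9, Tubb1 and F2rl2), where it called 2.61% of the genes with an adjusted value lower and 3.06% higher.

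**Figure D1:**
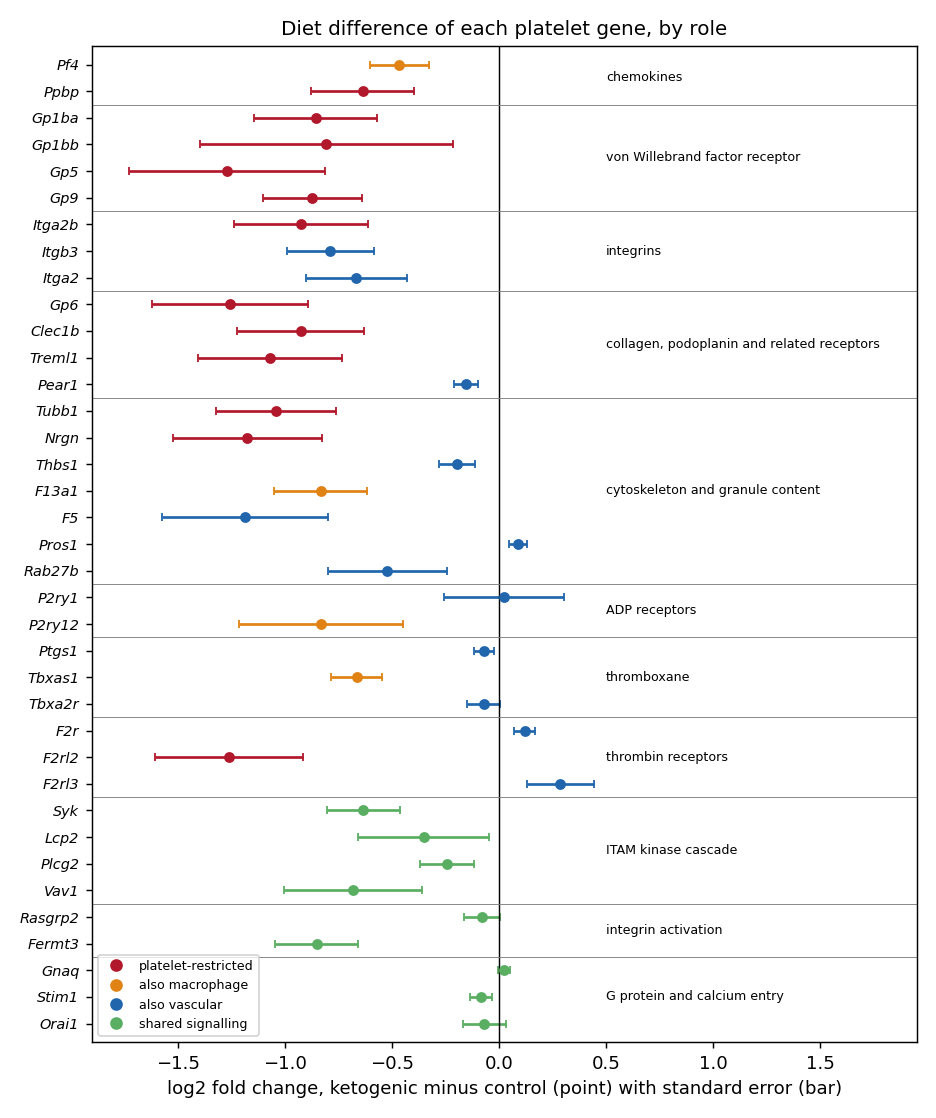
Log2 fold change (ketogenic minus control, points) with standard error (bars) of each of the 37 platelet genes from edgeR, n = 5 mice per diet, grouped by role and colored by class. The 12 platelet-restricted genes lie between −1.27 and −0.64, whereas Gnaq, Stim1, Orai1, Ptgs1, Tbxa2r and Rasgrp2 lie within 0.09 of 0.

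Pf4 and Ppbp encode chemokines stored in the alpha granules of platelets. Ppbp was measured at 112, 132, 141, 158 and 106 CPM in control mice 1 to 5 and at 129, 53.7, 108, 48.4 and 78.1 CPM in ketogenic mice 1 to 5. Ketogenic mice 2 and 4 were lowest, whereas ketogenic mice 1 and 3 lay inside the range of the control mice. Its log2 fold change was −0.64 ± 0.24 (SE). The Pf4 values were 74.2, 80.5, 86.1, 94.7 and 76.0 CPM in control mice 1 to 5 and 75.7, 46.5, 72.3, 46.5 and 57.1 CPM in ketogenic mice 1 to 5. The order of the mice was nearly that of Ppbp, with a smaller span. The log2 fold change of Pf4, which tissue macrophages can also make, was −0.46 ± 0.14 (SE).

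Gp1ba, Gp1bb, Gp5 and Gp9 encode the subunits of the receptor for von Willebrand factor. Gp9 stood at 79.6, 97.8, 108, 115 and 80.3 CPM in control mice 1 to 5 and at 82.4, 31.1, 64.8, 36.3 and 47.9 CPM in ketogenic mice 1 to 5. Its 4 lowest ketogenic mice lay below every control mouse. Gp1ba was measured at 22.2, 28.9, 41.0, 41.7 and 22.3 CPM in control mice 1 to 5 and at 20.5, 7.73, 26.0, 13.6 and 18.3 CPM in ketogenic mice 1 to 5. Ketogenic mouse 3 again lay within the control range. The log2 fold change was −0.87 ± 0.23 (SE) for Gp9 and −0.85 ± 0.29 (SE) for Gp1ba. Gp5 and Gp1bb had few reads. The Gp5 values were 2.23, 1.72, 2.76, 3.71 and 1.38 CPM in control mice 1 to 5 and 1.70, 0.270, 1.52, 0.334 and 1.02 CPM in ketogenic mice 1 to 5. It was counted by 3 to 41 reads per mouse, and its log2 fold change of −1.27 ± 0.46 (SE) rests on those. Gp1bb had 2 to 31 reads per mouse and a log2 fold change of −0.80 ± 0.59 (SE), and it overlaps the exons of Sept5 and Gm49601 on the same strand, so that its reads are uncertain.

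Itga2b and Itgb3 encode the subunits of the fibrinogen receptor. Itga2b is largely confined to the megakaryocyte lineage, and the product of Itgb3 also pairs with another alpha subunit in vascular cells. Itga2b stood at 161, 239, 223, 286 and 141 CPM in control mice 1 to 5 and at 194, 56.0, 137, 62.4 and 104 CPM in ketogenic mice 1 to 5. Control mouse 4 was highest and ketogenic mouse 2 lowest, and the diets overlapped through ketogenic mouse 1. Itgb3 was measured at 69.1, 90.1, 97.8, 107 and 52.7 CPM in control mice 1 to 5 and at 68.0, 44.0, 45.2, 33.9 and 49.9 CPM in ketogenic mice 1 to 5. The log2 fold change was −0.92 ± 0.31 (SE) for Itga2b and −0.79 ± 0.20 (SE) for Itgb3. Itga2, the alpha subunit of a collagen-binding integrin, stood at 8.77 to 12.8 CPM on the control diet and 3.42 to 9.71 CPM on the ketogenic diet, with a log2 fold change of −0.67 ± 0.24 (SE).

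Gp6 encodes the collagen receptor of platelets, Clec1b the receptor for podoplanin, Treml1 a receptor of the alpha granule membrane and Pear1 a receptor that is also on endothelial cells. The Gp6 values were 20.5, 48.0, 40.1, 49.4 and 24.6 CPM in control mice 1 to 5 and 22.3, 10.1, 24.3, 5.43 and 14.4 CPM in ketogenic mice 1 to 5. The highest mouse had 9.10 times the level of the lowest. Clec1b stood at 45.6, 73.1, 73.0, 96.1 and 52.9 CPM in control mice 1 to 5 and at 56.7, 19.2, 49.0, 21.3 and 33.0 CPM in ketogenic mice 1 to 5. Treml1 was measured at 30.6, 41.1, 46.9, 60.7 and 26.6 CPM in control mice 1 to 5 and at 33.1, 8.63, 26.8, 11.4 and 18.3 CPM in ketogenic mice 1 to 5. For these receptors ketogenic mice 2 and 4 were the 2 lowest of all 10 mice. The log2 fold changes were −1.25 ± 0.37 (SE) for Gp6, −0.93 ± 0.29 (SE) for Clec1b and −1.07 ± 0.34 (SE) for Treml1. Clec1b shares 184 bases with Clec9a and Pear1 shares 321 with Lrrc71, both on the same strand. The Pear1 values were 276, 266, 254, 272 and 270.0 CPM in control mice 1 to 5 and 243, 274, 212, 239.9 and 234 CPM in ketogenic mice 1 to 5. Pear1 did not share the pattern, and its lowest value was that of ketogenic mouse 3. Its log2 fold change was −0.15 ± 0.06 (SE).

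Among genes of the platelet's skeleton and granules, Tubb1 encodes the beta tubulin of the platelet's marginal band and Nrgn a calmodulin-binding protein that neurons also make. Tubb1 stood at 114, 147, 161, 166 and 106 CPM in control mice 1 to 5 and at 106, 31.2, 89.7, 41.4 and 68.1 CPM in ketogenic mice 1 to 5. Nrgn was measured at 22.8, 39.7, 41.9, 50.1 and 24.1 CPM in control mice 1 to 5 and at 27.4, 9.80, 21.4, 6.52 and 14.1 CPM in ketogenic mice 1 to 5. Both were lowest in ketogenic mice 2 and 4. The log2 fold change was −1.04 ± 0.28 (SE) for Tubb1 and −1.17 ± 0.35 (SE) for Nrgn. F5 encodes coagulation factor V, which platelets carry in their granules and endothelial cells can also make. The F5 values were 26.6, 41.0, 40.4, 59.0 and 23.4 CPM in control mice 1 to 5 and 26.0, 6.20, 28.4, 8.61 and 14.5 CPM in ketogenic mice 1 to 5. Its log2 fold change was −1.18 ± 0.39 (SE). F13a1, the catalytic subunit of factor XIII, was at 30.6 to 55.4 CPM on the control diet and 12.5 to 33.1 CPM on the ketogenic diet, with a log2 fold change of −0.83 ± 0.22 (SE). Rab27b, a small GTPase of granule release, was at 9.25 to 21.8 CPM on the control diet and 6.38 to 14.3 CPM on the ketogenic diet (log2 fold change −0.52 ± 0.28 (SE)). Thbs1, which encodes thrombospondin 1, was at 204 to 277 CPM on the control diet and 176 to 228 CPM on the ketogenic diet (log2 fold change −0.20 ± 0.08 (SE)). Pros1, which encodes protein S, a cofactor that restrains coagulation, was at 301 to 345 CPM on the control diet and 325 to 367 CPM on the ketogenic diet, with a log2 fold change of 0.09 ± 0.04 (SE). The diets overlapped for each of these genes.

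**Figure D2:**
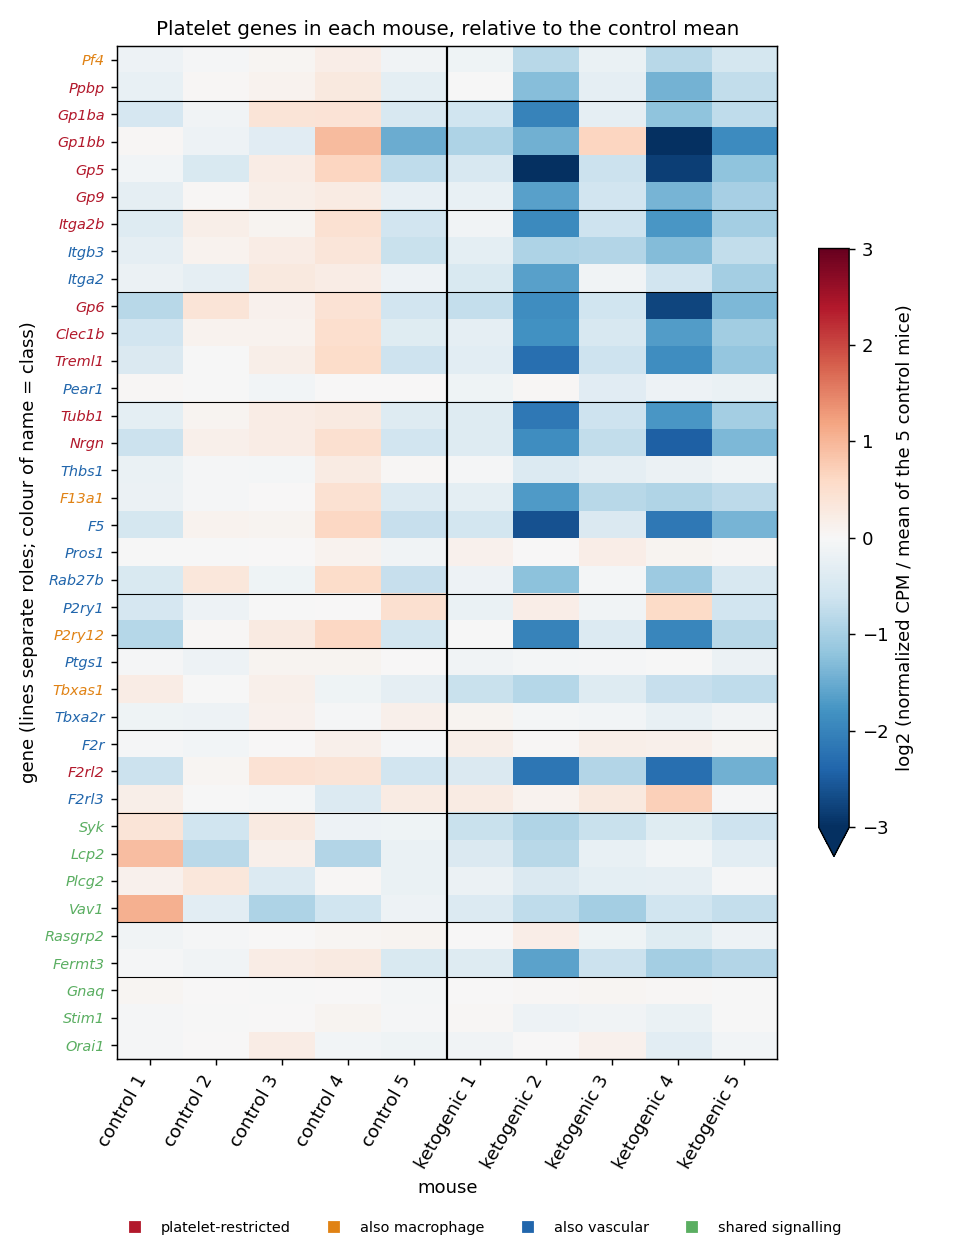
Heat map of the 37 platelet genes (rows, by role) in the 10 mice (columns). Color gives the log2 ratio of a mouse's normalized CPM to the mean of the 5 control mice, with blue for lower, and among the ketogenic mice the platelet-restricted genes are palest in mice 1 and 3 and darkest blue in mice 2 and 4.

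ADP acts on platelets through P2ry1 and P2ry12, the second of which is the target of clopidogrel. P2ry12 stood at 38.0, 71.3, 83.3, 106 and 47.4 CPM in control mice 1 to 5 and at 68.5, 17.3, 51.9, 17.7 and 38.9 CPM in ketogenic mice 1 to 5. Ketogenic mouse 1 had more P2ry12 than control mice 1 and 5. Its log2 fold change was −0.83 ± 0.38 (SE). P2ry12 shares 9 bases with Med12l on the other strand. P2ry1, which shares 992 bases with Gm37035 on the other strand, had 9 to 21 reads per mouse, at 0.836 to 1.64 CPM on the control diet and 0.783 to 1.75 CPM on the ketogenic diet, and no difference smaller than the spread between mice was detectable at this depth.

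The thromboxane pathway held the single member with an adjusted p-value under 0.05. Ptgs1 (cyclooxygenase 1) makes the prostaglandin precursor, Tbxas1 (thromboxane A synthase) turns it into thromboxane, and Tbxa2r encodes the receptor. Tbxas1 was measured at 21.3, 18.2, 20.2, 16.7 and 15.2 CPM in control mice 1 to 5 and at 11.5, 10.2, 14.0, 11.3 and 10.9 CPM in ketogenic mice 1 to 5. The diets did not overlap, which held for 1 of the 37 members and for 1.94% of all tested genes in this direction. No member had every ketogenic mouse above every control mouse, which held for 2.4% of all tested genes. Tbxas1 (ENSMUSG00000029925.13, chromosome 6 from 38875404 to 39084585), which shares 144 bases with Gm42962 on the other strand, was 18.3 ± 2.47 CPM on the control diet and 11.6 ± 1.46 CPM on the ketogenic diet (SD, n = 5 each). The log2 fold change was −0.66 ± 0.12 (SE), and edgeR gave an adjusted p-value of 0.0240. It had an adjusted p-value under 0.05 in 13 of 23 alternative settings, and the adjusted p-value ran from 2.12e-04 to 0.148 over them. Unlike 11 of the 12 platelet-restricted genes, Tbxas1 was not highest in control mouse 4, and macrophages also make it. The Ptgs1 values were 341, 317, 368, 370.1 and 355 CPM in control mice 1 to 5 and 324, 338, 344, 349 and 312 CPM in ketogenic mice 1 to 5. Its log2 fold change was −0.07 ± 0.05 (SE). Tbxa2r was at 79.1 to 98.7 CPM on the control diet and 75.4 to 94.0 CPM on the ketogenic diet, with a log2 fold change of −0.07 ± 0.08 (SE).

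Thrombin cleaves the receptors encoded by F2r, F2rl2 and F2rl3, of which mouse platelets use the products of F2rl2 and F2rl3. Endothelial cells use that of F2r, and F2rl3 was classed here as also made by vascular cells. F2r and F2rl2 are neighbors on chromosome 13, 78365 bases apart. F2rl2 stood at 16.5, 27.0, 35.2, 33.9 and 17.5 CPM in control mice 1 to 5 and at 19.3, 5.75, 14.1, 5.43 and 9.64 CPM in ketogenic mice 1 to 5. F2r was measured at 275, 265, 282, 312 and 275 CPM in control mice 1 to 5 and at 316, 288, 320.3, 315 and 292 CPM in ketogenic mice 1 to 5. The neighbors differed in direction, with log2 fold changes of −1.26 ± 0.35 (SE) for F2rl2 and 0.12 ± 0.05 (SE) for F2r. F2rl3 was at 10.1 to 16.0 CPM on the control diet and 13.2 to 22.2 CPM on the ketogenic diet, with a log2 fold change of 0.29 ± 0.16 (SE).

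Downstream of the collagen and podoplanin receptors, Syk encodes a kinase, Lcp2 an adaptor, Vav1 an exchange factor and Plcg2 a phospholipase, all of which leukocytes use as well. The Syk values were 49.9, 24.9, 46.0, 34.2 and 34.5 CPM in control mice 1 to 5 and 23.8, 20.3, 23.9, 29.5 and 24.5 CPM in ketogenic mice 1 to 5. Vav1 stood at 29.7, 11.4, 7.39, 9.41 and 12.8 CPM in control mice 1 to 5 and at 10.7, 8.36, 7.01, 9.27 and 8.62 CPM in ketogenic mice 1 to 5. Lcp2 was measured at 42.2, 12.6, 24.6, 12 and 19.4 CPM in control mice 1 to 5 and at 16.5, 12.4, 18.9, 20.9 and 17.9 CPM in ketogenic mice 1 to 5. Control mouse 1 was highest for each of these genes, and it also had the highest macrophage marker score of the 10 mice. The log2 fold change was −0.63 ± 0.17 (SE) for Syk, −0.68 ± 0.32 (SE) for Vav1 and −0.35 ± 0.31 (SE) for Lcp2. Without control mouse 1 these values were −0.51, −0.22 and 0.02, so the sign of the Lcp2 value rests on that mouse. Plcg2 was at 45.6 to 75.7 CPM on the control diet and 44.3 to 58.5 CPM on the ketogenic diet, with a log2 fold change of −0.24 ± 0.12 (SE).

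Integrins are switched on inside the cell by Rasgrp2, an exchange factor for Rap1, and by kindlin-3, the product of Fermt3. The Fermt3 values were 159.7, 154, 193, 197 and 120.0 CPM in control mice 1 to 5 and 126, 54.2, 106, 80.6 and 89.5 CPM in ketogenic mice 1 to 5. Ketogenic mouse 1 alone among the ketogenic mice reached the control range. Fermt3 (ENSMUSG00000024965.8) shares 89 bases with Trpt1 on the other strand and had a log2 fold change of −0.85 ± 0.19 (SE) (edgeR, adjusted p = 0.0563), and it had an adjusted p-value under 0.05 in 6 of 23 alternative settings. Rasgrp2 was at 141 to 160.0 CPM on the control diet and 118 to 174 CPM on the ketogenic diet, with a log2 fold change of −0.08 ± 0.08 (SE). Gnaq, which couples ADP, thromboxane and thrombin receptors to calcium release, was at 342 to 372 CPM on the control diet and 353 to 375 CPM on the ketogenic diet, with a log2 fold change of 0.02 ± 0.03 (SE). Stim1 and Orai1, the sensor and the channel of calcium entry, had log2 fold changes of −0.08 ± 0.05 (SE) and −0.07 ± 0.10 (SE). The highest of the 10 mice had 1.10 times the level of the lowest for Gnaq, 1.23 times for Stim1 and 1.45 times for Orai1.

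The members also differed in level per length. On the RPKM scale, which divides by the gene length that the deposited table used, the highest control means were 119 ± 19.2 for Ppbp, 108 ± 17.7 for Gp9, 98.0 ± 19.1 for Tubb1, 84.7 ± 4.93 for F2r, 64.5 ± 2.89 for Pros1, 63.2 ± 11.9 for Fermt3 and 60.1 ± 5.90 for Pf4 (SD, n = 5). In this order, each mean lay within the larger SD of the pair from the next one, except that F2r and Pros1 differed by more. The lowest were P2ry1 at 0.148 ± 0.0373, Gp1bb at 0.579 ± 0.330 and Gp5 at 1.07 ± 0.409, although Gp1bb and Gp5 encode subunits of the same receptor as Gp9. The order depends on the length, which was 1359 bases for Pf4, 7283 for Ptgs1 and 21105 for Rasgrp2 in the deposited table, whereas their longest coding transcripts in GENCODE have 588, 2867 and 2296 bases. Rescaled to the longest coding transcript, a choice made after the data were seen, Pf4 was highest at 139 ± 13.6. Ptgs1 at 121 ± 7.26 and Ppbp at 119 ± 19.2 followed, within the larger SD of each other. In the mouse with the most reads, Pf4, Ptgs1 and Ppbp had 1.78, 1.46 and 1.61 reads per base of that transcript. No gene had more than 2.17 reads per base of its deposited length in any mouse. Whether a limit on read density shaped the order of levels was not tested.

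The platelet-restricted genes ranked the mice in nearly the same way. Relative to the mean of the control mice for each gene, the geometric mean over the 12 genes was 75.6, 102, 112, 138 and 66.9% in control mice 1 to 5 and 75.6, 25.7, 72.2, 24.3 and 44.6% in ketogenic mice 1 to 5. Ketogenic mice 1 and 3 lay above control mouse 5, and ketogenic mice 2 and 4 stood apart at the low end. The lowest of all 10 mice was ketogenic mouse 2 for 7 of the 12 genes and ketogenic mouse 4 for the other 5, and these were the 2 lowest mice for 11 genes. Control mouse 4 was the highest for 11 genes. Within the ketogenic diet, mice 1 and 3 were the 2 highest for all 12 genes, and within the control diet, mice 1 and 5 were the 2 lowest for 10.

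A score was computed for each mouse as the mean, over genes, of the z-score of log2 CPM over the 10 mice. For the 12 platelet-restricted genes, it was 0.65 ± 0.49 on the control diet, from 0.08 to 1.26, and −0.65 ± 0.88 on the ketogenic diet, from −1.55 to 0.28 (SD, n = 5 each). Of the 5 ketogenic mice, 3 lay below every control mouse. For the 21 genes also made by vascular cells or of general signaling, the score was 0.28 ± 0.24 and −0.28 ± 0.32. By it, 4 ketogenic mice lay below every control mouse. These 21 genes were not alike, with a median log2 fold change of −0.15 and 5 positive values. F5, Fermt3, Itgb3 and Rab27b were at −1.18, −0.85, −0.79 and −0.52, whereas Ptgs1, Gnaq and Stim1 were at −0.07, 0.02 and −0.08. The difference, ketogenic minus control, was −1.31 for the first score and −0.56 for the second. Leaving out any 1 mouse gave −1.47 to −1.22 and −0.62 to −0.46. A score over genes chosen with the diet contrast known is a description and carries no p-value.

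**Figure D3:**
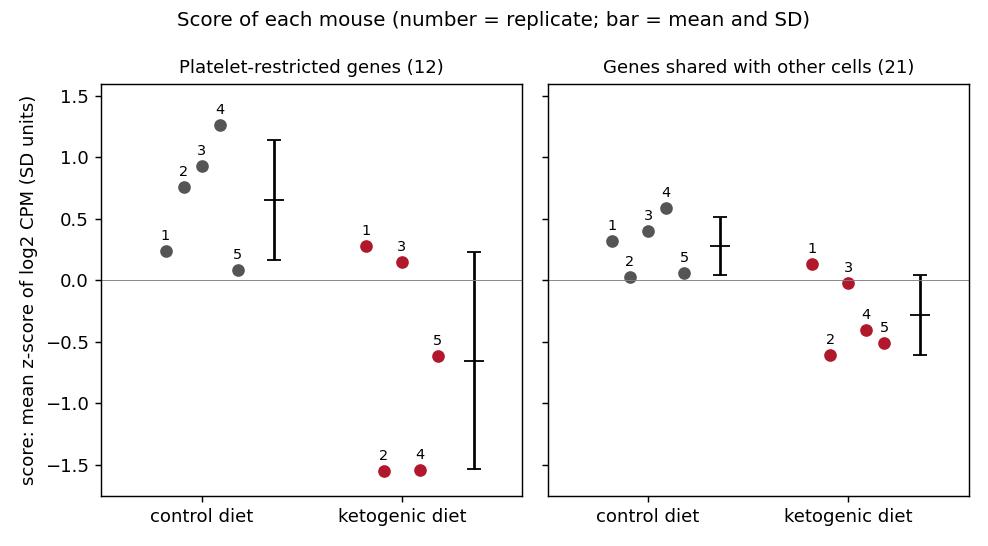
Scores (mean z-score of log2 CPM, in SD units) of each mouse over the 12 platelet-restricted genes (left) and the 21 genes shared with vascular and other cells (right), with the mean and SD per diet, n = 5. On the left, ketogenic mice 1 and 3 lie at 0.28 and 0.15, above control mouse 5 at 0.08, and ketogenic mice 2 and 4 lie at −1.55 and −1.54.

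The variation among mice of the same diet does not use the diet contrast. After the diet mean had been subtracted from each gene's log2 CPM, the 66 pairs of platelet-restricted genes had a median Pearson r of 0.916 over the 10 mice, from 0.569 to 0.984, where the median over all pairs of tested genes was −0.00196. Leaving out any 1 mouse gave medians of 0.907 to 0.936. The median was 0.156 for the genes also made by vascular cells and 0.131 for those of general signaling. The genes of a mouse share 1 library and its depth, so the correlations are given as a description. Each gene was then correlated with the platelet-restricted score, leaving the gene itself out of it. An r of at least 0.8 was reached by 192 of all tested genes (1.2%), among them 17 of the 37 members, 11 of them platelet-restricted. The exception in that class was Gp1bb, at 0.68, with its 2 to 31 reads. Outside the class, F5 reached 0.98 (Spearman's rho 0.98, and r 0.99 without the 2 mice of most extreme score), Pf4 0.98, P2ry12 0.98, Rab27b 0.92, Fermt3 0.88 and Stim1 0.80.

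Several members did not follow the score. Ptgs1 had an r of −0.06 with the platelet-restricted score, Gnaq 0.20, Rasgrp2 0.11, Pear1 −0.59 and F2rl3 −0.48. Syk, Lcp2 and Vav1 had an r of −0.13, −0.19 and −0.32 with the platelet-restricted score and of 0.81, 0.87 and 0.69 with the macrophage marker score. Control mouse 1 was highest for each of these genes and for the macrophage marker score. The r with the macrophage marker score was not computed without that mouse, so it may rest largely on it. Tbxas1 had 0.40 with the first and 0.34 with the second. The marker scores themselves had an r between −0.46 (macrophages) and −0.00120 (lymphocytes) with the platelet-restricted score, over 9 cell types. The part of other cell types in the members' differences was not tested beyond these values.

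**Figure D4:**
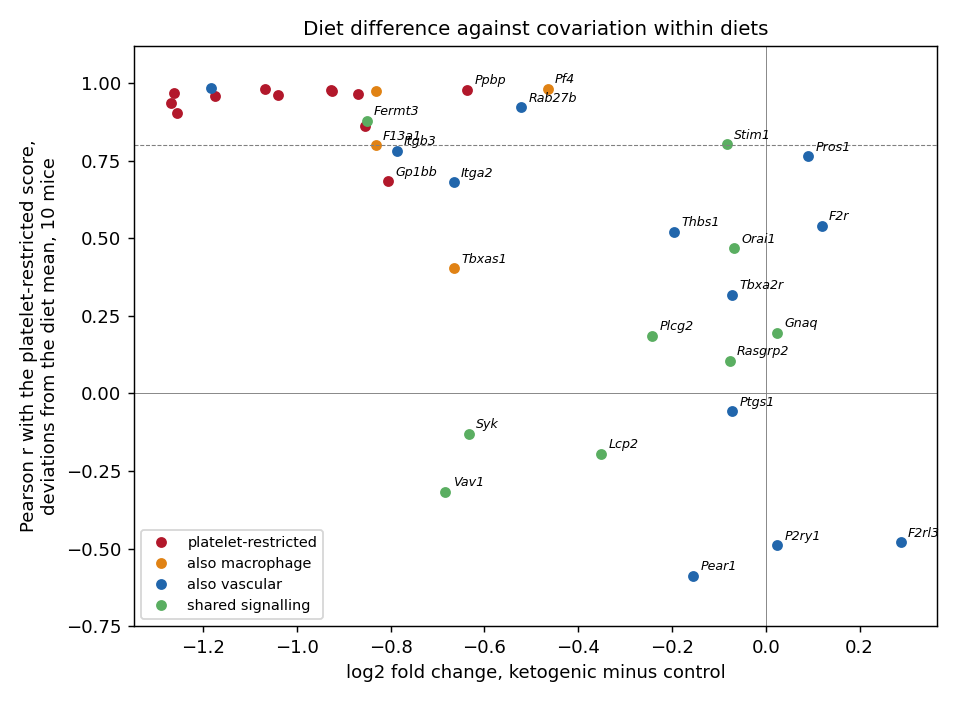
Log2 fold change between the diets (horizontal) against Pearson r with the platelet-restricted score after the diet means were removed (vertical, n = 10 mice), 1 point per member, colored by class, with a dashed line at r = 0.8. Of the 12 platelet-restricted genes 11 lie above the line, whereas Syk, Lcp2 and Vav1 have a negative log2 fold change and r below 0.

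The platelet genes differed widely in how densely reads covered them. No gene had more than 2.17 reads per base in any mouse, and with 1 read allowed per start position and strand the highest share of positions in use would be 0.994. Whether such a limit applied to these counts was not tested. Ppbp had up to 1.61 reads per base, Gp9 up to 1.44 and Tubb1 up to 1.30, on short transcripts of 1083, 881 and 1406 bases. Pf4 had up to 1.78 reads per base of its longest coding transcript of 588 bases. Per log2 unit of the mean deviation of the other platelet-restricted genes, Ppbp changed by 0.75, Gp9 by 0.70, Tubb1 by 0.90 and Pf4 by 0.42, whereas F5 changed by 1.27, Gp5 by 1.25 and Gp6 by 1.14 at 0.0992 reads per base or fewer. After the counts had been corrected for the number of start positions, the slope was 1.02 for Ppbp, 0.85 for Gp9, 1.03 for Tubb1 and 0.46 for Pf4, whose length in the deposited table is the longer one. It was 1.19 for F5, 1.14 for Gp5 and 1.06 for Gp6. The correction raises counts by more where reads are denser, so higher slopes of dense genes are built into it. Without the correction, Gp1ba had a slope of 0.80 at 0.17 reads per base, Itga2b 0.99 at 0.92 and Clec1b 0.94 at 0.97. Fermt3, which other blood cells make as well, had a slope of 0.56 at 0.84. Whether read density shaped the slopes was not tested.

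**Figure D5:**
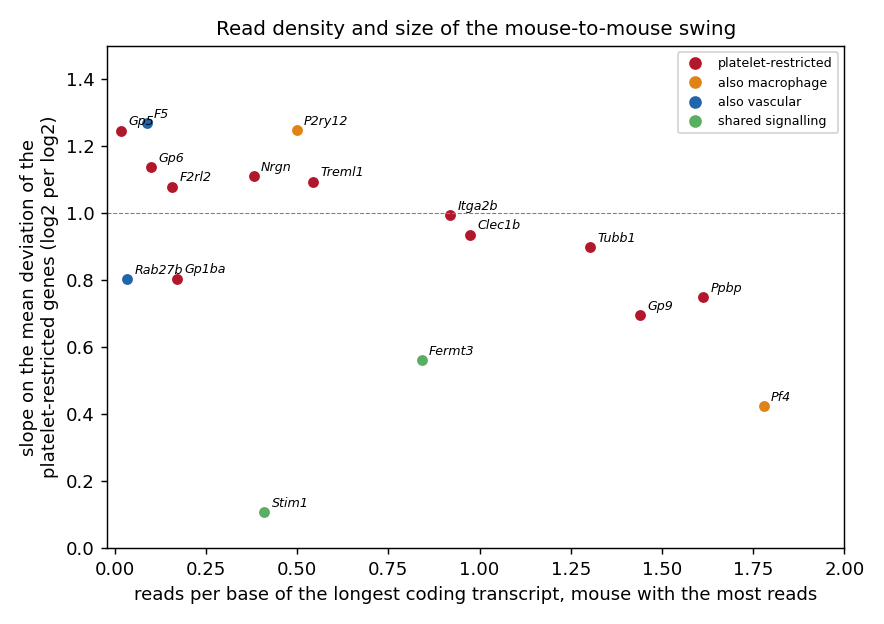
Reads per base of the longest coding transcript in the mouse with the most reads (horizontal) against the slope of the gene on the mean deviation of the platelet-restricted genes (vertical, log2 per log2) for the 17 members with r of at least 0.8, with a dashed line at a slope of 1. The slope is 1.27 for F5 at 0.0878 reads per base and 0.42 for Pf4 at 1.78, and Stim1 lies lowest at 0.11.

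Other genes of platelet biology were taken from 4 lists drawn from textbook knowledge, but with earlier results of these data known. Of the 10 regulators of megakaryocytes, 0 had an adjusted p-value under 0.05 from edgeR, and 3 were lower and 0 higher at an unadjusted p-value under 0.05. Of the 17 granule and secretion genes, 1 was called lower. Unc13d, which primes granules for release, was at 17.6 to 26.4 CPM on the control diet and 12 to 17.7 CPM on the ketogenic diet, and its log2 fold change was −0.74 ± 0.14 (SE), for which edgeR gave an adjusted p-value of 0.0250. Of the 25 receptor signaling partners, 1 was called lower. Grap2, an adaptor that binds the Lcp2 protein, was at 4.24 to 7.65 CPM on the control diet and 1.80 to 3.31 CPM on the ketogenic diet, and its log2 fold change was −1.03 ± 0.21 (SE) (edgeR, adjusted p = 0.0381). Of the 12 genes that hold platelets in check, 1 was called lower. Nos3, the endothelial nitric oxide synthase, was at 172 to 203 CPM on the control diet and 148 to 169 CPM on the ketogenic diet, and its log2 fold change was −0.26 ± 0.05 (SE) (edgeR, adjusted p = 0.0375). None of the genes of these lists was called higher by edgeR, where 0.527% of all tested genes were called lower and 0.809% higher. At an unadjusted p-value under 0.05, 8 of the granule and secretion genes, 6 of the signaling partners and 1 of the brakes were lower, and 0, 1 and 1 were higher, where 9.26% of all tested genes were lower and 8.57% higher. With DESeq2, 1, 5, 2 and 1 genes of the 4 lists were lower and 0, 0, 0 and 1 higher, where 2.61% of its genes with an adjusted value were lower and 3.06% higher. All ketogenic mice lay below all control mice for Grap2 and Nos3, which held for 1.94% of all tested genes. All lay above for Adora2a, an adenosine receptor gene, which was named after its values were seen, and this held for 2.4% of all tested genes. Adora2a was at 44.7 to 68.2 CPM on the control diet and 69.3 to 90.2 CPM on the ketogenic diet, and its log2 fold change was 0.50 ± 0.11 (SE) (edgeR, adjusted p = 0.0504). Over 21 alternative settings, the adjusted p-value was under 0.05 for Unc13d in 12, for Grap2 in 10 and for Nos3 in 12. The medians of the 4 lists were −0.34, −0.10, −0.08 and 0.03, in that order.

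Among genes outside the members, the 5 whose deviations were most like the platelet-restricted score over the 10 mice were Gm28609 (Pearson r 0.99), Pls1 (0.98), Lrrn3 (0.97), Rgs18 (0.97) and Inafm2 (0.97). Rgs18 encodes a regulator of G protein signaling that is abundant in platelets and Pls1 an actin-bundling protein. Rgs18 ran from 19.5 to 129 CPM over the mice and Inafm2 from 144 to 193 CPM. Their log2 fold changes were −0.53 ± 0.30 (SE), −0.74 ± 0.40 (SE), −0.90 ± 0.41 (SE), −0.996 ± 0.37 (SE) and −0.15 ± 0.07 (SE), in the order above.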

How the data were processed

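The authors sequenced 50-base single reads from the CD31+ heart cells of 10 mice, using SMART-Seq v4 libraries, which amplify full-length cDNA and do not record the strand. Per the submitters' processing notes, bcl2fastq 2.17.1.14, STAR 2.3 and HTSeq 0.6.0 were used with mm10. The authors deposited raw counts of reads per gene, without normalization, and RPKM values, in which those counts are divided by gene length and sequencing depth. Removal of duplicate reads is not given in the sources used here. Symbols and positions were taken from GENCODE M21 on GRCm38, and 46488 of 46983 identifiers matched without regard to the version.

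Counts were normalized by TMM, filtered by filterByExpr and tested by the quasi-likelihood F-test of edgeR 4.0.16 in R 4.3.3, with Benjamini-Hochberg adjustment over 15949 genes. Each standard error is |log2 fold change| over the square root of F. Log2 CPM used a prior count of 2. No gene list was tested as a set. The alternatives were other size factors, other filters on low counts, DESeq2 1.42.0, limma 3.58.1 on log2 RPKM plus 1 or 0.1, a replicate block, cardiomyocyte or macrophage scores as covariates, and each mouse left out. The start-position correction, the platelet-restricted score as a covariate, the rescaling of RPKM to the longest coding transcript and the leave-one-out medians of the correlations were chosen after seeing the data. The script was tested on simulated data.

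The members, their classes and all lists were chosen with earlier results of these data known. Genes named are the 37 members, the genes of 4 lists (regulators of megakaryocytes, granule and secretion genes, receptor signaling partners, platelet brakes) with an adjusted p-value under 0.05 or, where a list has none, the smallest p-value, 5 cell markers, and the 5 genes most like the platelet-restricted score. 1 gene that this rule named is not reported here. Precision at this depth follows the read counts given with each low gene. No 2 libraries held identical counts.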

Additional observations from a re-analysis of the deposited data

Results flagged for a closer look

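Among 78 sets of 5 mice, which are the 37 genes and both scores in each diet, 2 held a mouse far from the others, where chance gives about 3.9. In the ketogenic mice, Gp1bb was 2.28 CPM in mouse 3 and at most 0.763 CPM in the others, so that the gap to the nearest mouse was 0.718 of the range, and these values rest on few reads. In the control mice, Vav1 was 29.7 CPM in mouse 1 and at most 12.8 CPM in the others, a gap of 0.758 of the range. The same mouse had the highest macrophage marker score, at 1.58.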

How the results depend on the processing

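Each score difference kept its sign, and its value changed between settings by less than 1 SD between mice under every alternative run. The median correlation of the platelet-restricted genes ran from 0.907 to 0.936 without 1 mouse and was 0.916 with the start-position correction. The 213 genes called between the diets became 816 with DESeq2, 113 with the replicate block, 45 and 119 with the cardiomyocyte or macrophage score in the model, and 86 to 492 without 1 mouse, the highest without ketogenic mouse 2. Of the called genes, 129 were higher and 84 lower with TMM, against 152 and 72 by library size alone and 101 and 86 with upper quartile factors. The 1 called member became 2 with no filter or with at least 10 counts in every mouse (Fermt3 added), 9 with DESeq2, 0 with limma on log2 RPKM plus 0.1 or when the cardiomyocyte score was added, 2 when the macrophage score was (Itgb3 and Gp6), and 0 to 3 without 1 mouse. Tbxas1 lost its call without control mouse 1, 2 or 3 or ketogenic mouse 1, 4 or 5. The labels do not say what a replicate number marks. Over all tested genes, the correlation of deviations between same-numbered mice was between −0.134 and 0.0936. Such values cannot exclude a litter or day shared by some mice, and with the replicate block 1 member was called. P2ry1 was negative with the cardiomyocyte score (−0.27) and without control mouse 1 or 2 or ketogenic mouse 2 or 4, and ran from −0.15 to 0.18 without 1 mouse. Plcg2 was 0.018 with the cardiomyocyte score, and Lcp2 was 0.15 with the macrophage score and ran from −0.51 to 0.018 without 1 mouse, the highest without control mouse 1. With the platelet-restricted score as a covariate, chosen after seeing the data, the log2 fold change was 0.060 for F5, 0.35 for Rab27b, −0.38 for P2ry1, 0.42 for P2ry12, 0.0019 for Tbxa2r, 0.034 for Stim1 and 0.061 for Orai1, with adjusted p-values from edgeR of 0.164 to 0.995, and it was −0.026 for Pf4, still negative. That score is over genes chosen with the diet contrast known, so nothing is read from these values. Among the members highest by either length, control levels per length moved for Pf4, Ptgs1 and Pros1 when the longest coding transcript replaced the deposited length. Members lower in the order were not checked in this way. Some of them changed by more, as Rasgrp2 did from 7.17 to 65.9. Each change is set by the ratio of the deposited length to that of the longest coding transcript. Which length is apt was not tested. Low counts limit Gp5, Gp1bb and P2ry1.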
